A study of Mus musculus with 6 samples.

Results

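The cluster of miR-183, miR-96 and miR-182 consists of 3 hairpins that lie side by side in the mouse genome, and its mature products are miR-183, miR-96 and miR-182, each with a 5p and a 3p arm. The 6 arms mmu-miR-183-5p, mmu-miR-183-3p, mmu-miR-96-5p, mmu-miR-96-3p, mmu-miR-182-5p and mmu-miR-182-3p, written without the species prefix from here on, were taken by name from the 1393 annotated miRNAs of the deposited table. They were chosen by their normalized counts in the libraries compared here, namely the difference between the groups, so every value of that contrast is given as a description and without a test. Small RNA from the right substantia nigra (SN) of mice was sequenced in 6 libraries. The hα-syn(A53T) + Ang-(1-7) group, 3 libraries, received angiotensin-(1-7), a heptapeptide of the renin-angiotensin system that acts on the receptor Mas, by osmotic pump, delivered above the SN over 4 weeks, at a dose of 1.1 nmol per hour and a flow of 0.25 μL per hour. The hα-syn(A53T) group, also 3 libraries, received artificial cerebrospinal fluid at the same rate and for the same time. The sample labels describe both groups as a strain overexpressing hα-syn(A53T), the human α-synuclein with a mutation of familial Parkinson's disease, whereas the study's methods describe an AAV carrying it, given into the right SNpc of male C57BL/6J mice aged 8 weeks. The replicate numbers are those of the sample labels, and a sheet of the authors' own comparison lists the hα-syn(A53T) libraries under other numbers. Below, the groups are called the Ang-(1-7) libraries and the hα-syn(A53T) libraries. Control mice were not analysed here, and the sources leave unstated if each library is a single mouse or a pool, which means that the spread between libraries may be technical.

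A miRNA gene is transcribed as a long precursor that is cut to a hairpin and then to a duplex, of which one arm is usually kept as the guide and the other is mostly degraded. The guide pairs with messenger RNAs through its seed, the bases near its 5′ end, and lowers their stability or translation. The 3 hairpins come from a common transcript. They are best known from sensory cells such as photoreceptors of the retina, hair cells of the inner ear, olfactory neurons and neurons of the dorsal root ganglia, and changes in the seed of miR-96 cause progressive hearing loss in humans and mice.

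The 3 guide sequences share most of their seed, and they are printed 5′ to 3′ because the values below are read against this likeness. Capitals mark the seed, bases 2 to 8 counted from the 5′ end, and all 6 arms were found in RefSeq (GRCm38.p6).
miR-183-5p: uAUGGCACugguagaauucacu
miR-96-5p: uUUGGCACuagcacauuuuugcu
miR-182-5p: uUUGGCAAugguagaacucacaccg
miR-183-3p: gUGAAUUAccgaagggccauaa
miR-96-3p: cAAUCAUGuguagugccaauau
miR-182-3p: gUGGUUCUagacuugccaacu

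The seed of miR-182-5p differs from that of miR-96-5p by C8A, and the seed of miR-183-5p differs from that of miR-96-5p by U2A, with the base of miR-96-5p first and positions counted from its 5′ end. Between miR-183-5p and miR-182-5p the seeds differ at 2 positions, A2U and C8A, with the base of miR-183-5p first. Over their whole length these 2 guides are the closest pair, with 18 of 22 compared bases identical, the seed included, and a shared run of 8 bases that starts at position 9. miR-96-5p has 12 of 23 bases in common with miR-182-5p and 13 of 22 with miR-183-5p. All 3 guides start with U. The 3p arms start with G, C and G, and their seeds differ from each other at 4 to 7 positions.

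In GRCm38.p6, the RefSeq build and not the mm9 of the deposited files, all 3 hairpins lie on the minus strand of chromosome 6. Mir183 occupies 30169668 to 30169737, Mir96 occupies 30169446 to 30169551 and Mir182 occupies 30165918 to 30165992, so the order of transcription is miR-183, miR-96, miR-182. Only 116 bases separate Mir183 from Mir96, whereas 3453 bases separate Mir96 from Mir182, and the span of all 3 is 3820 bases. The hairpins are intergenic in this annotation. The nearest protein-coding genes are Nrf1, on the opposite strand at a distance of 12460 bases, and Ube2h, on the same strand at a distance of 41552 bases.

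All libraries were sequenced to a similar depth, from 14796519 to 17088611 reads over the annotated miRNAs, with 1067 to 1132 of them detected. Values are normalized counts, reads over the size factor of their library, and 1 read is worth 0.907 to 1.10 of them. Libraries of one group differed by far more than counting alone gives, with a chi-square statistic of 292 to 1804 for each degree of freedom, and none was treated as a copy. Ang-(1-7) replicate 3 stood apart from the other Ang-(1-7) libraries in the values below. Its log2 values correlated across miRNAs at 0.984 with Ang-(1-7) replicate 1, at 0.979 with Ang-(1-7) replicate 2 and at 0.980 with hα-syn(A53T) replicate 3, and miRNAs are not independent replicates. It also held 10386 and 21338 normalized counts of the Hox-encoded miR-10a-5p and miR-10b-5p, against at most 1073 and 1118 in the other Ang-(1-7) libraries and 5772 to 25914 and 6887 to 48662 in the hα-syn(A53T) libraries. The part of this difference in the results below was not tested.

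miR-183-5p, the most abundant arm of the cluster by mean, was much higher with Ang-(1-7). It had 123799, 167039 and 61929.5 normalized counts in Ang-(1-7) replicates 1, 2 and 3, against 4434, 6004 and 8848 in hα-syn(A53T) replicates 1, 2 and 3. The groups did not overlap, and the lowest Ang-(1-7) library was 7.00 times the highest hα-syn(A53T) library. The means were 117589 ± 52829 with Ang-(1-7) and 6429 ± 2238 without it (SD, n = 3 each), an 18.3-fold ratio and a difference of 4.14 in log2(normalized count + 1). In bulk tissue, fewer cells of a type and less RNA per cell cannot be told apart.

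miR-182-5p, which shares most of its sequence with miR-183-5p, had 97692.8, 143838 and 39312 normalized counts in the Ang-(1-7) libraries, against 4743, 5395 and 5379 in the hα-syn(A53T) libraries. Again the groups were separate, with 7.29 times more in the lowest Ang-(1-7) library than in the highest hα-syn(A53T) library. Its means of 93614 ± 52382 with Ang-(1-7) and 5172 ± 372 without it (SD, n = 3 each) gave an 18.1-fold ratio, and its log2 difference was 3.99. The 3 hα-syn(A53T) libraries lay close together, since the highest was 1.14 times the lowest, whereas the highest Ang-(1-7) library was 3.66 times the lowest.

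miR-96-5p, the guide whose seed is altered in inherited deafness, was the least abundant guide and showed the largest ratio between the groups among the 3 guides. Its normalized counts were 30029.5, 63637 and 12011 in the Ang-(1-7) libraries, against 1204, 1370.5 and 859 in the hα-syn(A53T) libraries. Its lowest Ang-(1-7) library exceeded the highest hα-syn(A53T) library 8.76-fold. The means were 35226 ± 26202 with Ang-(1-7) and 1144 ± 261 without it (SD, n = 3 each), so that the ratio was 30.8-fold and the log2 difference was 4.66.

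Among the 1393 annotated miRNAs ordered by level, the guides stood many places higher with Ang-(1-7). miR-183-5p held ranks 27, 25 and 39 in the Ang-(1-7) libraries, against 111 at best and 147 at worst in the hα-syn(A53T) libraries. miR-182-5p held ranks 31, 27 and 57 with Ang-(1-7), against 131 at best without it, and miR-96-5p held ranks 63, 41 and 103, against 227, 220 and 260. The order of the 3 guides was miR-183-5p, miR-182-5p, miR-96-5p in 5 of the 6 libraries, and in hα-syn(A53T) replicate 1 miR-182-5p stood above miR-183-5p.

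The 3p arms, the side of the duplex that is mostly degraded, were present at a small part of the guide level and were higher with Ang-(1-7) as well. miR-182-3p had 329.6, 312.9 and 96.2 normalized counts in the Ang-(1-7) libraries, against 8.20, 10.2 and 15.2 in the hα-syn(A53T) libraries. These values did not overlap, and the means of 246 ± 130 with Ang-(1-7) and 11.2 ± 3.59 without it (SD, n = 3 each) gave a 22.0-fold ratio and a log2 difference of 4.19. miR-183-3p had 74.9, 84.8 and 49.9 normalized counts with Ang-(1-7), against 3.08, 16.7 and 7.08 without it. Its means were 69.9 ± 18 with Ang-(1-7) and 8.95 ± 6.99 without it (SD, n = 3 each), a 7.81-fold ratio, and the log2 difference of 3.05 was the smallest of the 6 arms.

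miR-96-3p was barely detected. It had 10, 23 and 6 reads in the Ang-(1-7) libraries, against 0, 2 and 0 in the hα-syn(A53T) group, and it passed the filter on low values only through the Ang-(1-7) libraries. Over all libraries of a group this came to 39 reads with Ang-(1-7) and 2 reads without it. The ratio per read sequenced was 19.7, with an exact 95% interval of 5.10 to 168 that covers counting error only, pools the libraries of a group and is no test between the groups. Its log2 difference of 3.12 depended on the pseudocount and was 5.38 with a pseudocount of 0.1 and 1.60 with a pseudocount of 5.

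**Figure D1:**
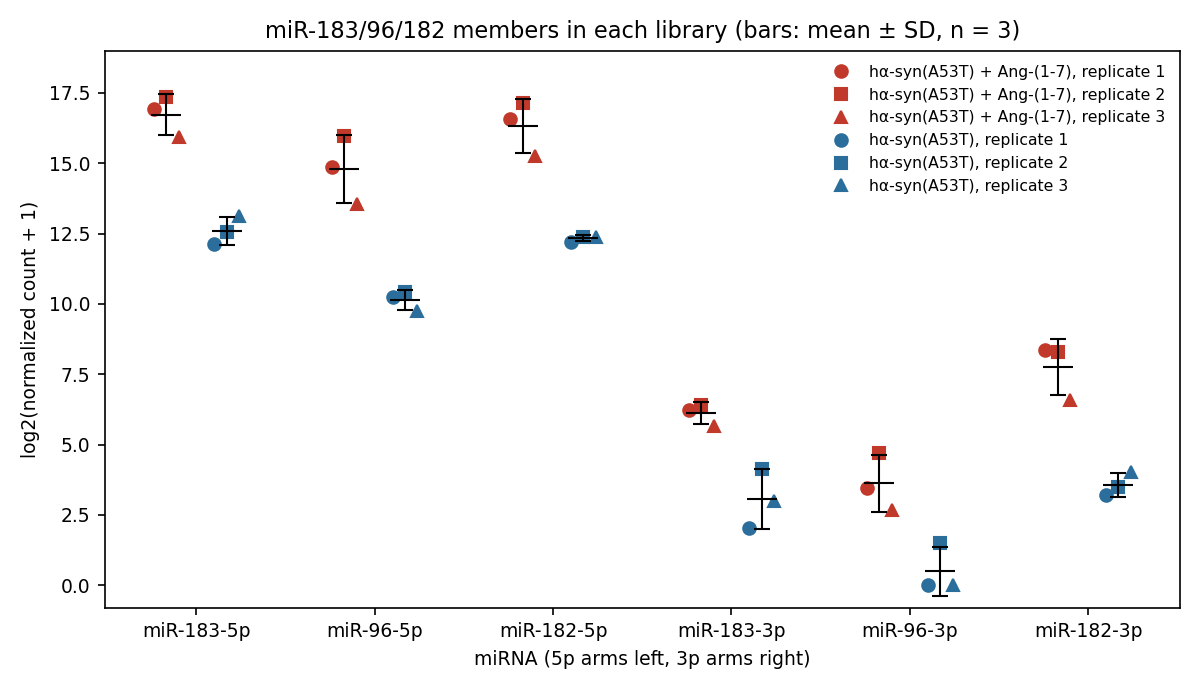
Level of each arm of the cluster in each library as log2(normalized count + 1), with Ang-(1-7) libraries in red and hα-syn(A53T) libraries in blue, symbols for replicates 1 to 3, and lines for the mean ± SD of a group. For each of the 6 arms the red points lie above the blue points, and for miR-182-5p the hα-syn(A53T) points lie between 4743 and 5395 normalized counts.

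All 6 arms were higher in every Ang-(1-7) library than in every hα-syn(A53T) library, a pattern found for 14.2% of the 1065 annotated miRNAs that passed the filter on low values. In the limma fit over these 1065 miRNAs, 5.54% passed an adjusted p of 0.05 as higher with Ang-(1-7), 4.04% as lower and 9.58% in either direction, and 6 of the 6 arms were among the higher ones. Because this contrast chose the arms, nothing is read from either count. miR-96-3p was no longer among them in the fits that left out replicate 1 or 2 of the Ang-(1-7) libraries or replicate 1 or 3 of the hα-syn(A53T) libraries. Ordered by rise on the log2 scale over all miRNAs tested, 8 miRNAs rose more than miR-96-5p, the arm with the largest rise. These were the 8 tested arms of the miR-200 family, described below. The counts for the other arms, up to 13 for miR-183-3p, include arms of the cluster itself. Only rises were ordered, so larger falls were not counted. Without Ang-(1-7) replicate 3 the log2 differences of the guides were 4.54 for miR-183-5p, 5.28 for miR-96-5p and 4.52 for miR-182-5p. Without Ang-(1-7) replicate 2 they were 3.83, 4.08 and 3.59 for the same guides.

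The arms varied together over the Ang-(1-7) libraries. Replicate 3 was the lowest Ang-(1-7) library for 6 of 6 arms, and the order was replicate 2, replicate 1, replicate 3 for 5 of them. miR-182-3p was the exception, with replicate 1 slightly above replicate 2. How many of all miRNAs followed this order was not counted, so the order is not read as particular to the cluster. Relative to the mean of the Ang-(1-7) libraries on the log2 scale, replicate 3 lay at -0.81 for miR-183-5p, -1.24 for miR-96-5p and -1.06 for miR-182-5p. Replicate 2 lay at 0.62, 1.16 and 0.81 for these guides, and replicate 1 lay at 0.19, 0.08 and 0.25. Among the guides the swing was therefore widest for miR-96-5p and narrowest for miR-183-5p.

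The hα-syn(A53T) libraries showed no such common order. miR-183-5p deviated by -0.48, -0.04 and 0.52 in hα-syn(A53T) replicates 1, 2 and 3, and miR-96-5p deviated by 0.10, 0.29 and -0.39. Replicate 3 was thus the highest hα-syn(A53T) library for miR-183-5p and the lowest for miR-96-5p, although the 2 hairpins lie next to each other. miR-182-5p deviated by no more than 0.12 in any of these libraries. Each group holds 3 libraries, and a shift of a single library is enough to set such an order.

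**Figure D2:**
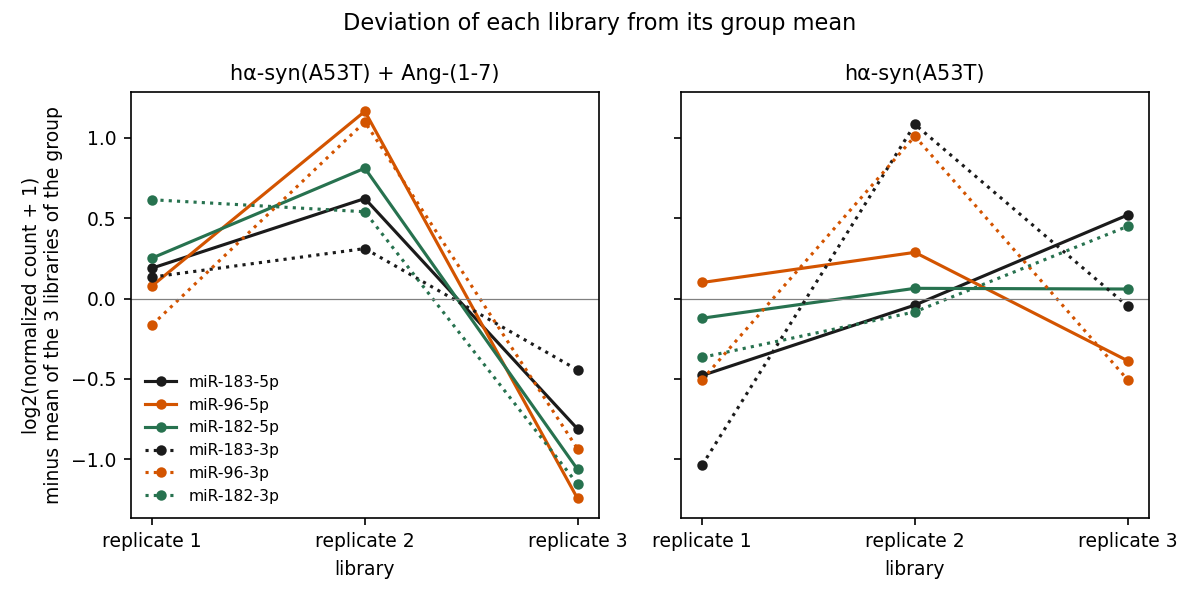
Deviation of each library from the mean of its group in log2(normalized count + 1), with the Ang-(1-7) group in the left panel and the hα-syn(A53T) group in the right panel, guides as solid lines and 3p arms as dotted lines. In the Ang-(1-7) group all lines end low at replicate 3, at -1.24 for miR-96-5p, and in the hα-syn(A53T) group the lines cross.

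The guides varied widely between Ang-(1-7) libraries. The SD of the log2 values over the Ang-(1-7) libraries was 0.73 for miR-183-5p, 1.2 for miR-96-5p and 0.96 for miR-182-5p, and the median over 443 other miRNAs with a mean of at least 100 normalized counts was 0.30. The SD of miR-96-5p was larger than that of 98.9% of those miRNAs, that of miR-182-5p larger than 95.5% and that of miR-183-5p larger than 89.6%. Over the hα-syn(A53T) libraries the SDs were 0.50 for miR-183-5p, 0.35 for miR-96-5p and 0.11 for miR-182-5p, with a median of 0.23 over the other miRNAs. miR-182-5p was thus among the more variable miRNAs with Ang-(1-7) and, with 16.3% of the other miRNAs below it, among the less variable ones without it. Whether the spread itself differed between the groups was not tested.

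The cluster took 1.62% of the reads of annotated miRNAs in Ang-(1-7) replicate 1, with a 95% Wilson interval of 1.62% to 1.63%. In Ang-(1-7) replicates 2 and 3 the shares were 2.14% (2.13% to 2.14%) and 0.754% (0.750% to 0.758%). The hα-syn(A53T) libraries had shares of 0.0685% (0.0672% to 0.0699%), 0.0830% (0.0817% to 0.0844%) and 0.0874% (0.0860% to 0.0888%). These intervals cover counting error only and are much narrower than the differences between libraries. Summed over the 6 arms, the cluster averaged 246759 ± 130843 normalized counts in the Ang-(1-7) group and 12766 ± 2358 in the hα-syn(A53T) group (SD, n = 3 each), a 19.3-fold ratio.

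While the total moved, the proportions of the hairpins stayed in overlapping ranges. With both arms summed, miR-183 made up 49.2%, 44.6% and 54.7% of the cluster's reads in the Ang-(1-7) libraries, against 42.7%, 47.0% and 58.6% in the hα-syn(A53T) libraries. miR-182 made up 38.9%, 38.4% and 34.8% with Ang-(1-7), against 45.7%, 42.2% and 35.7% without it. miR-96 made up 11.9%, 17.0% and 10.6% with Ang-(1-7), against 11.6%, 10.7% and 5.69% without it. The group means were 49.5 ± 5.05% and 49.4 ± 8.23% for miR-183, 37.4 ± 2.28% and 41.2 ± 5.09% for miR-182, and 13.2 ± 3.37% and 9.33 ± 3.19% for miR-96, in each pair with Ang-(1-7) first (SD, n = 3 each). The widest 95% Wilson interval, for miR-182 in hα-syn(A53T) replicate 1, ran from 44.8% to 46.7%. Reads of different miRNAs are captured with different efficiency in library preparation, so these shares compare libraries and do not give the molar proportions of the hairpins.

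**Figure D3:**
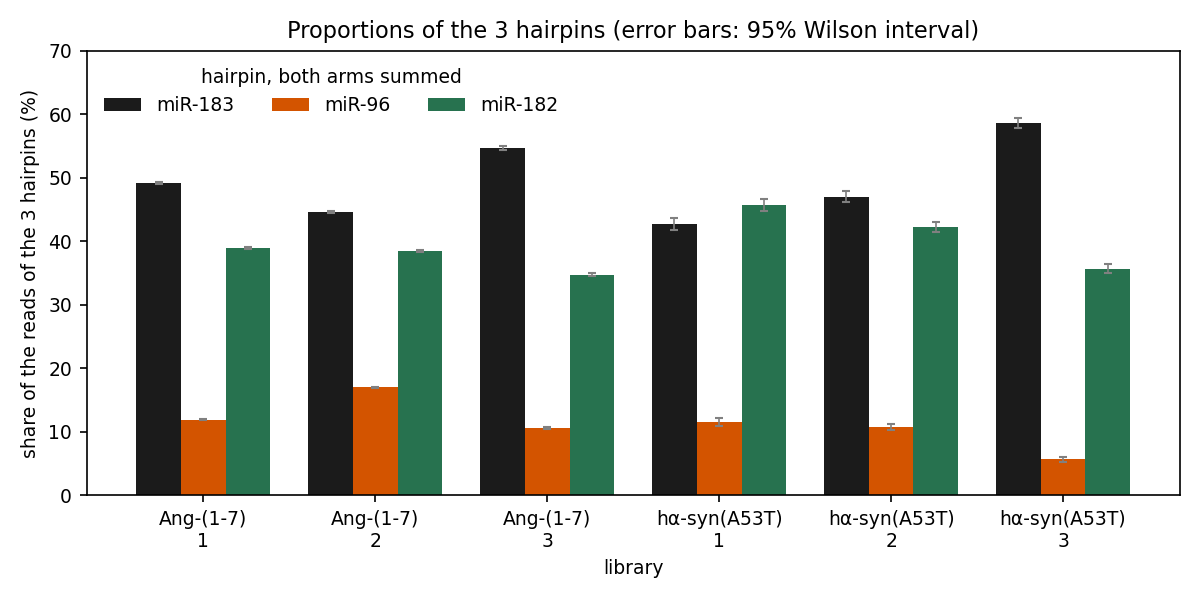
Share of each hairpin, both arms summed, in the reads of the 3 hairpins in each of the 6 libraries, in percent, with 95% Wilson intervals as error bars. miR-183 lies between 42.7% and 58.6%, miR-96 is the smallest share in every library, and the share of each hairpin overlaps between the groups.

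The planned ratios between guides followed the same lines. The ratio of miR-182-5p to miR-183-5p was 0.789, 0.861 and 0.635 in the Ang-(1-7) libraries, against 1.07, 0.899 and 0.608 in the hα-syn(A53T) libraries, so the groups overlapped. Its mean log2 difference, Ang-(1-7) minus hα-syn(A53T), was -0.15 and turned to 0.03 without hα-syn(A53T) replicate 1. Over all 6 libraries this ratio changed 1.76-fold from its lowest to its highest value, while the level of either guide changed far more.

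miR-96-5p stood higher relative to its neighbours in some Ang-(1-7) libraries. Its ratio to miR-183-5p was 0.243, 0.381 and 0.194 in the Ang-(1-7) libraries, against 0.271, 0.228 and 0.0971 in the hα-syn(A53T) libraries. These groups overlapped, and the log2 difference of 0.53 fell to 0.07 without hα-syn(A53T) replicate 3, the library with the lowest ratio. The ratio of miR-96-5p to miR-182-5p was 0.307, 0.442 and 0.306 with Ang-(1-7), against 0.254, 0.254 and 0.160 without it. Here the groups did not overlap, with means of 0.352 ± 0.0785 and 0.222 ± 0.0544 (SD, n = 3 each, Ang-(1-7) first), and the log2 difference of 0.67 ranged from 0.45 to 0.78 when each library was left out in turn. The ratio to miR-182-5p was not among those planned. Both ratios come from the contrast that chose the arms and are given without a test.

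The balance between the arms of a hairpin was one-sided in every library, and the 5p arm held 99.7% to 100% of the reads. For miR-182 the 3p arm made up 0.336% of the hairpin's reads in Ang-(1-7) replicate 1 (95% Wilson interval 0.302% to 0.374%), 0.217% in replicate 2 (0.193% to 0.244%) and 0.244% in replicate 3 (0.202% to 0.295%). In hα-syn(A53T) replicates 1, 2 and 3 it made up 0.173% (0.0875% to 0.340%), 0.189% (0.105% to 0.337%) and 0.281% (0.171% to 0.464%). The groups overlapped, and the difference of the means of 0.0516 percentage points was 0.0164 without Ang-(1-7) replicate 1.

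For miR-183 the 3p share was 0.0605% (0.0483% to 0.0758%), 0.0508% (0.0406% to 0.0634%) and 0.0805% (0.0619% to 0.105%) in the Ang-(1-7) libraries. In the hα-syn(A53T) libraries it was 0.0693% (0.0236% to 0.204%), 0.277% (0.175% to 0.438%) and 0.0800% (0.0387% to 0.165%). hα-syn(A53T) replicate 2 stood above the other 5 libraries, on 18 reads of miR-183-3p. The difference of the means, -0.0782 percentage points, was -0.0107 without that library.

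For miR-96 the 3p share was 0.0333% (0.0181% to 0.0612%), 0.0398% (0.0265% to 0.0597%) and 0.0453% (0.0208% to 0.0988%) in the Ang-(1-7) libraries. In hα-syn(A53T) replicate 2 it was 0.135% (0.0370% to 0.491%), on 2 reads. In hα-syn(A53T) replicates 1 and 3 it was 0 of 1174 and 0 of 849 reads, which allows a share of up to 0.256% and 0.353% when 3 reads are taken as the limit of a count of 0. The upper ends of the Wilson intervals were 0.326% and 0.450%. At this depth a difference in the arm share of miR-96 was not detectable.

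**Figure D4:**
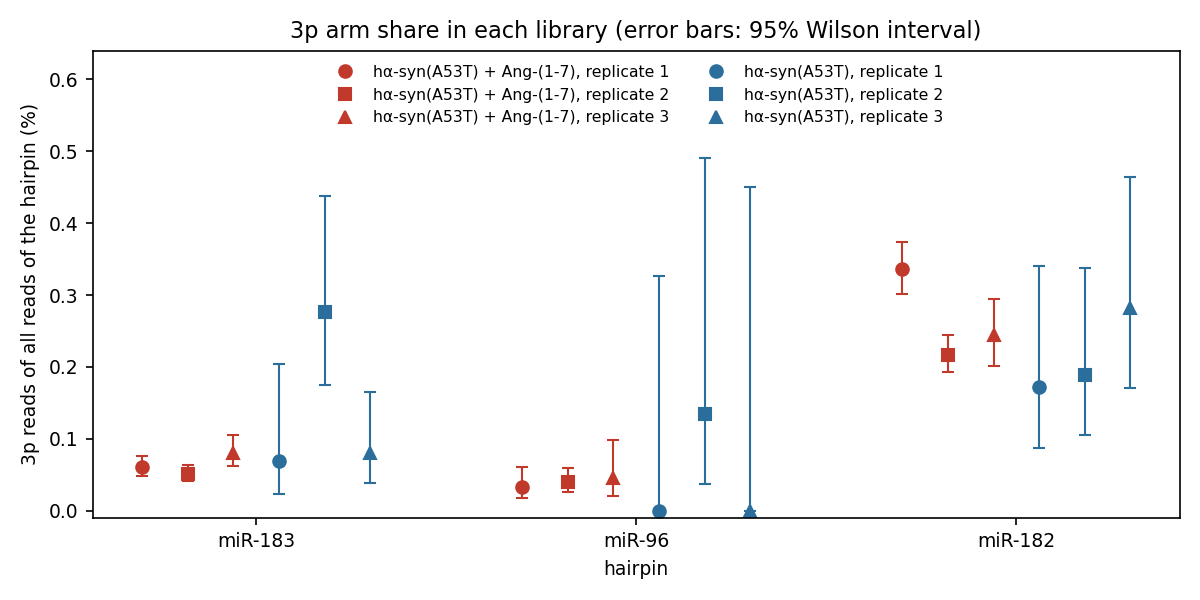
Share of the 3p arm in all reads of a hairpin in each library, in percent, with Ang-(1-7) libraries in red, hα-syn(A53T) libraries in blue, symbols for replicates 1 to 3 and 95% Wilson intervals as error bars. All shares lie at or under 0.336%, and the hα-syn(A53T) libraries, which have fewer reads of each hairpin, have the wider intervals.

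Other miRNAs with a like seed were looked up beside the guides. miR-1271-5p, whose seed equals that of miR-96-5p, was listed at 0 in 5 libraries and at 1.01 normalized counts, 1 read, in hα-syn(A53T) replicate 3. Among the measured miRNAs whose seed differs at 1 base from that of miR-183-5p are miR-25-3p, miR-92a-3p, miR-92b-3p and miR-32-5p, which repress targets through a shared seed of their own. Their log2 differences were -0.19, -0.10, -0.10 and 0.03, where miR-183-5p had 4.14. Of 16 seed relatives of the 6 arms that could be tested, 0 passed the limma fit, 1 had an unadjusted p under 0.05, and 0 passed with voom. Over all 1065 miRNAs 9.58% passed in either direction, so a count of 0 among 16 is near the background. The lowest adjusted p was 0.159 (limma), for miR-652-3p, a relative of miR-183-5p with a log2 difference of -0.53.

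The pattern most like that of the cluster belonged to the miR-200 family. Likeness was measured as the SD, over the 6 libraries, of a miRNA's log2 ratio to the mean of the 3 guides, so that 0 means a constant ratio. The guides themselves had SDs of 0.24 for miR-182-5p, 0.45 for miR-183-5p and 0.56 for miR-96-5p against the mean of the other 2 guides. The median over the 443 other miRNAs was 2.42. The 10 closest were miR-200b-5p (0.87), miR-200a-5p (0.91), miR-200c-3p (1.04), miR-429-3p (1.06), miR-200b-3p (1.18), miR-141-3p (1.23), miR-200a-3p (1.30), miR-184-3p (1.41), miR-139-5p (1.46) and miR-193b-3p (1.49). The first 7 of these belong to the miR-200 family, known as a guard of the epithelial state and also expressed in olfactory neurons.

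After each group was centred on its own mean, which removes the difference between the groups, the 5 closest were miR-429-3p (SD 0.23), miR-200a-3p (0.24), miR-224-5p (0.27), miR-200a-5p (0.32) and miR-141-3p (0.32). miR-200a-3p, the most abundant of them, had 202925, 306030 and 73387 normalized counts in the Ang-(1-7) libraries, against 1740, 1419 and 1987 in the hα-syn(A53T) libraries. As in the cluster, replicate 2 was the highest and replicate 3 the lowest Ang-(1-7) library. miR-224-5p, which lies outside both families, had 178, 227 and 97.1 normalized counts with Ang-(1-7), against 57.4, 74.1 and 57.7 without it.

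**Figure D5:**
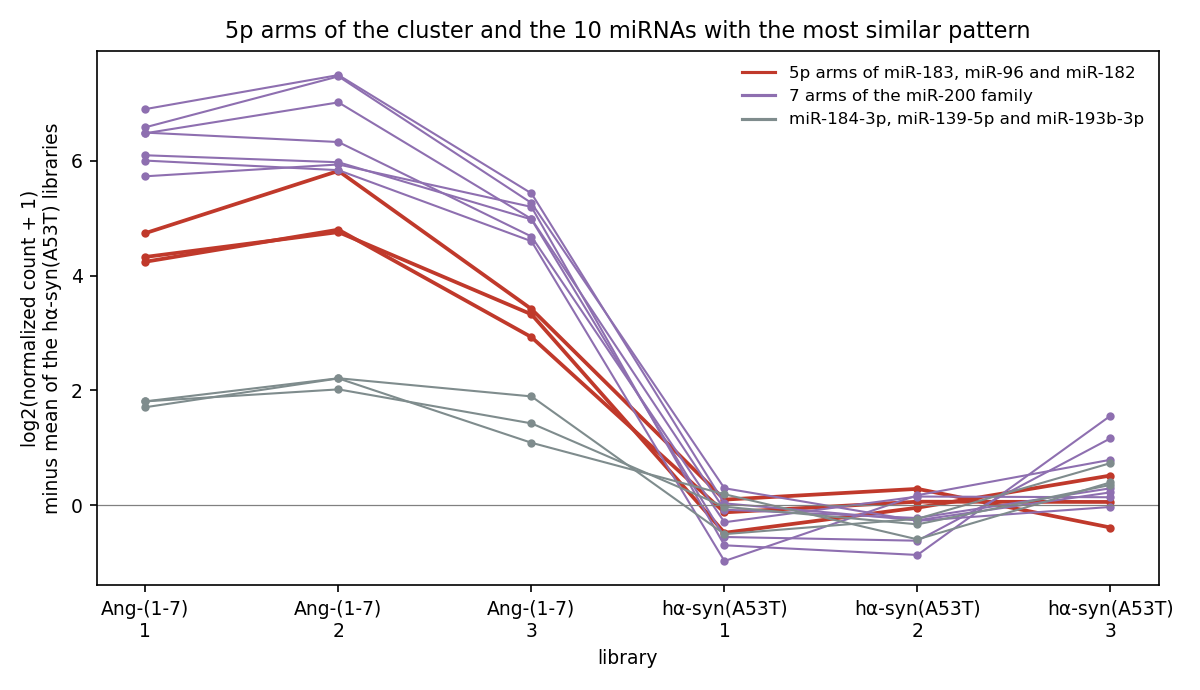
Level of the 3 guides (red), of 7 arms of the miR-200 family (violet) and of miR-184-3p, miR-139-5p and miR-193b-3p (grey) in each library, as log2(normalized count + 1) minus the mean of the hα-syn(A53T) libraries. The guides peak in Ang-(1-7) replicate 2, guides and miR-200 arms are at their lowest Ang-(1-7) level in replicate 3, and the miR-200 arms lie above the guides in the Ang-(1-7) libraries.

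The miR-200 family did not keep a constant ratio to the cluster between the groups. Summed over its measured arms, it had 1.41, 1.30 and 1.44 times the normalized counts of the cluster in the Ang-(1-7) libraries, against 0.331, 0.233 and 0.571 in the hα-syn(A53T) libraries. It was thus nearly the same within the Ang-(1-7) libraries, Ang-(1-7) replicate 3 included, and the groups did not overlap. All 8 tested arms of the 9 measured rose (median log2 difference 5.76, adjusted p of at most 0.00101, limma), where the median over all 1065 miRNAs tested was -0.04. The family's direction was known when it was listed, so this count is no independent evidence.

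miR-184-3p, miR-139-5p and miR-193b-3p rose less than the cluster, by 1.97, 1.75 and 1.67 on the log2 scale (adjusted p = 0.00696, 0.0021 and 0.0245, limma). These 3 were chosen by likeness to the guides over the same 6 libraries, which includes the difference between the groups. The choice thus favoured a rise, and these p-values are no independent evidence of it. miR-139-5p, a miRNA abundant in brain, had 86447, 99916 and 66291 normalized counts with Ang-(1-7), against 24229, 19595 and 31540 without it. The call of miR-193b-3p was lost without Ang-(1-7) replicate 1 or 2 and without hα-syn(A53T) replicate 1 or 2, with adjusted p (limma) between 0.00853 and 0.104 over the libraries left out. miR-224-5p rose by 1.32 (adjusted p = 0.0421, limma), and its call was lost when any library except Ang-(1-7) replicate 3 was left out.

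The cluster is known from sensory organs, and 12 other miRNAs known from retina or inner ear were listed for comparison. Of these, 0 rose, 3 fell and 9 did not pass (limma), with a median log2 difference of -0.36. Over all 1065 miRNAs 5.54% rose and 4.04% fell, with a median of -0.04. At an unadjusted p under 0.05, 0 were higher and 5 lower, and with voom 0 were higher and 3 lower. Some of the 12 were abundant without Ang-(1-7) as well. Means in the hα-syn(A53T) libraries were 1676110 normalized counts for miR-9-5p and 695667 for miR-99a-5p, but 14.4 for miR-18a-5p. At the high levels a small addition from other cells would hardly show. Whether cells of a sensory organ were present was not tested, and the list does not decide it. miR-124-3p, a neuronal miRNA also abundant in retina, had 46739, 54657 and 79626 normalized counts in the Ang-(1-7) libraries, against 102230, 112701 and 111801 in the hα-syn(A53T) libraries, and fell by 0.89 on the log2 scale (adjusted p = 0.0386, limma). miR-204-5p and miR-211-5p, known from retinal pigment epithelium and choroid plexus, had log2 differences of -1.31 and -1.36 and passed as lower (adjusted p = 0.0326 and 0.0358, limma). The calls of these 3 miRNAs were lost when Ang-(1-7) replicate 2 or replicate 1 or 2 of the hα-syn(A53T) libraries was left out, where adjusted p (limma) reached 0.165. The call of miR-124-3p was also lost when hα-syn(A53T) replicate 3 or Ang-(1-7) replicate 1 was left out.

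Lists of other cells in which the cluster or the miR-200 family is found gave 1 call each, of 3 endocrine and 4 epithelial miRNAs. Over all 1065 miRNAs 5.54% rose and 4.04% fell. The median log2 differences of the lists were 0.82 and 0.60, against -0.04 over all miRNAs tested. In the endocrine list, miR-7a-5p rose by 0.91 (adjusted p = 0.0358, limma), and miR-375-3p, a defining miRNA of endocrine cells, had 841, 740.5 and 696 normalized counts with Ang-(1-7), against 494, 782 and 558 without it, so its groups overlapped. miR-7b-5p had 54439.5, 46989 and 61192 normalized counts with Ang-(1-7), against 26648, 24682 and 43694 without it. Its groups did not overlap, and its log2 difference of 0.82 did not pass (adjusted p = 0.072, limma). In the list of squamous and glandular epithelium, miR-205-5p had 41.0, 45.2 and 29.0 normalized counts with Ang-(1-7), against 14.4, 35.2 and 27.3 without it. miR-203-3p overlapped too. So did miR-31-5p, with 742, 1103 and 3299 normalized counts with Ang-(1-7), against 550, 527 and 2889 without it. miR-31-3p, the less abundant arm of that hairpin, alone of 4 rose, by 2.01 (adjusted p = 0.0318, limma). It had 38.0, 81.5 and 23.6 normalized counts with Ang-(1-7), against 9.23, 7.41 and 13.2 without it. The calls of miR-7a-5p and miR-31-3p were each lost when Ang-(1-7) replicate 1 or replicate 1 or 2 of the hα-syn(A53T) libraries was left out, that of miR-7a-5p also without Ang-(1-7) replicate 3 and that of miR-31-3p also without Ang-(1-7) replicate 2. The summed level of the epithelial list ran from 3520 to 8702 with Ang-(1-7) and from 2458 to 9993 without it, and that of the endocrine list from 244323 to 321602 and from 125552 to 201976.

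Lists of other tissues moved in both directions, and their counts are to be read against the 5.54% of all 1065 miRNAs that rose and the 4.04% that fell. Among 7 neuronal miRNAs, which were abundant in every library, 4 rose and 1 fell. The 1 that fell was miR-124-3p, already counted in the list of retina or inner ear. The summed level of the neuronal list was 1573190 to 2109630 with Ang-(1-7) and 1181440 to 1228540 without it. Most of that sum was miR-128-3p, which did not pass (adjusted p = 0.0586, limma). The counts for neurons changed with the libraries, since 0 rose without hα-syn(A53T) replicate 2 and 1 rose without hα-syn(A53T) replicate 1. Of 5 skeletal muscle miRNAs 4 fell, and among them miR-206-3p fell by 5.02 (adjusted p = 2.45e-05, limma), and their sum was 15469 to 22275 with Ang-(1-7) and 43012 to 86906 without it. In the choroid plexus list 2 of 8 fell, the pair miR-204-5p and miR-211-5p already named, and 0 rose at an unadjusted p under 0.05. Of 4 red blood cell miRNAs, miR-486a-5p fell by 1.97 (adjusted p = 0.00285, limma). miR-451a, miR-144-5p and miR-144-3p did not pass, with log2 differences of 0.83, 1.16 and -0.40, and for each of them the groups overlapped. The median of the list was 0.22. Of 5 Hox-encoded miRNAs, miR-196a-5p passed as lower, listed at 0 in all Ang-(1-7) libraries against 4.10, 9.27 and 7.08 in the hα-syn(A53T) libraries, and 4 passed without Ang-(1-7) replicate 3. miR-196a-5p passed the filter on low values only through the hα-syn(A53T) libraries, so it could be called only as lower. With an hα-syn(A53T) library left out, it could no longer reach the filter and was not tested. Among 3 oligodendrocyte, 4 endothelial and mural and 6 leukocyte and microglial miRNAs, 0 passed in voom. In limma 0 passed with the authors' scaling, the filter used for the 1065 miRNAs and no replicate block. In that limma fit 3, 0 and 0 had an unadjusted p under 0.05, and the 3 oligodendrocyte miRNAs were lower. With upper quartile scaling, the replicate block or the filter of 50 in every library of 1 group, 1 of the oligodendrocyte miRNAs passed as lower. The part of any of these lists in the level of the cluster was not tested. None of them marks the SN itself, so the labelled tissue was checked only as far as neuronal miRNAs go.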

How the data were processed

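Small RNA of the right SN was measured in 6 libraries, all of which were used, and 0 further sample columns were set aside. The study's methods name paired-end NovaSeq reads, alignment by Bowtie 1.2.3 and normalization by DESeq2 1.10.1, and the submitters' processing notes add the build mm9. How adapters were trimmed and reads counted, and the miRBase release, were not given in the sources used here. Normalized counts were deposited by the authors, a signal in which each library's reads are scaled by a size factor, one for annotated miRNAs and another for predicted loci. Within each of these sets 100% of the values were whole reads (tolerance 1e-06), which gave the depths and shares. Columns of the authors' own comparison (fold changes and p-values) were not used.

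The 6 arms, the lists and the tests were chosen with earlier results of these data known. limma 3.58.1 (R 4.3.3) with a trend was fitted to log2(value + 1) for the 1065 annotated miRNAs that reached 1 in 3 or more libraries, with Benjamini-Hochberg adjustment and calls at an adjusted p under 0.05. It was also run on simulated counts with a single spread set in advance, so that run does not show how it behaves on these libraries. The p-values of the limma fit measure only the spread between these libraries. A fold change on the log2(value + 1) scale understates the change of rare miRNAs. Intervals are 95% Wilson intervals and, like the limit of 3 reads for a count of 0, cover counting error only. The miRNAs named were the 6 arms, the 10 most like the guides (mean of at least 100 normalized counts) and the 5 most like them after centring, seed relatives, and members of 12 lists (miR-200 family, retina or inner ear, endocrine cells, squamous and glandular epithelium, choroid plexus, neurons, oligodendrocytes, endothelium and mural cells, leukocytes and microglia, red blood cells, skeletal muscle, Hox clusters) that passed or were most abundant. Not every list member that passed or was most abundant was named, as in the neuronal and skeletal muscle lists. miR-205-5p, miR-375-3p, miR-7b-5p, miR-31-5p, miR-10a-5p, miR-451a, miR-144-5p, miR-144-3p, miR-99a-5p and miR-18a-5p were added after their values were seen. The alternatives were pseudocounts of 0.1 and 5, quantile, upper quartile and reduced-total scaling, 2 other filters, a replicate block, each library left out and, added after the data were seen, voom on the whole reads. The planned count fits were not run. Sequences came from RefSeq, read with Python 3.11.15, pandas 2.3.3 and scipy 1.17.1, and figures were drawn with matplotlib 3.10.9.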

Additional observations from a re-analysis of the deposited data

How the results depend on the processing

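The log2 differences of the 6 arms kept their sign under all 88 combinations of an arm and an alternative and ran from 1.60 to 5.38. In 86 of them the value moved by less than 1 SD between libraries, and the other 2 were miR-96-3p under the pseudocounts of 0.1 and 5. Because the groups did not overlap for any arm, leaving out a library or changing the pseudocount, filter or block could not turn a sign. Only the other scalings and voom could have done so. The arms were chosen by this contrast, so neither the kept signs nor the calls of the arms are read as support for it. The arms among the calls numbered 5 or 6 when a library was left out and 4 under the filter of 50 in every library of 1 group, which did not test miR-183-3p and miR-96-3p. Calls over all miRNAs numbered 102, with 59 higher and 43 lower. When each library was left out in turn they numbered 27 to 111, with 19 to 62 higher and 8 to 49 lower, and the lowest came without hα-syn(A53T) replicate 2. These smaller fits have fewer libraries. Upper quartile scaling moved the median log2 difference of all miRNAs to -0.16 from -0.04, and miR-124-3p lost its call under quantile normalization (adjusted p = 0.0983, limma), as did miR-7a-5p and miR-224-5p under upper quartile scaling (adjusted p = 0.116 and 0.0652, limma). Replicate numbers were taken from the labels, and the values do not settle if they pair the libraries. Deviations of same-numbered libraries correlated at 0.12, -0.09 and 0.18, and those of differently numbered ones at -0.22 to 0.14. Deviations within a group of 3 are not independent, and the authors' sheet numbers the hα-syn(A53T) libraries otherwise. A fit with the replicate block made 112 calls, 57 higher and 55 lower, with 6 arms among them. With a mean of at least 10 in place of 100 normalized counts, 8 of the 10 most similar miRNAs were the same, and miR-141-5p and miR-31-3p took the other places. The count of reads limits the 3p arms of the hα-syn(A53T) libraries, where a hairpin had 0 to 18 reads of its 3p arm. No group of 3 libraries was tested for outlying samples.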
